A study of Homo sapiens with 22 samples.

Results

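The transcriptome of MDA-MB-231 cells after 4 h of dexamethasone (Dex) was compared with that of vehicle-treated cells. The samples were chosen by their labels: 4 of the 10 RNA-seq samples of a series of 22 samples, namely 2 vehicle samples and 2 samples given 100 nM Dex for 4 h. MDA-MB-231 is an established line of triple-negative breast cancer (TNBC), a breast cancer that lacks the oestrogen and progesterone receptors and amplified HER2. Cells of every group, vehicle included, had first spent 3 days in RPMI without phenol red, supplemented with 5% serum stripped by charcoal, which removes steroid hormones. The remaining RNA-seq groups, also 2 samples each, were 100 nM Dex for 2 h and 10 μM Compound A (CpdA), a plant-derived GR ligand, for 2 h or 4 h. Dex 2 h and CpdA 4 h serve here only to place the 4 h changes. The study's methods call the duplicates biological. Beyond that nothing says whether they were separate cultures, so a p-value measures only the spread between these samples, which may be technical. All samples come from 1 cell line. The labels state no time for vehicle, but the deposited data columns are named for 2 h (vehicle replicate 1) and 4 h (vehicle replicate 2). The vehicle samples may thus differ in time as well as in culture, which cannot be told apart, and only replicate 2 would then match Dex 4 h in time.

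Dex is a synthetic glucocorticoid that binds the glucocorticoid receptor (GR), a ligand-activated transcription factor encoded by NR3C1. Liganded GR moves to the nucleus, where it binds glucocorticoid response elements and raises transcription of nearby genes, and it lowers transcription of many inflammatory genes, in part through contacts with the factors AP-1 and NF-κB. Known direct targets include feedback inhibitors of GR, of mitogen-activated protein (MAP) kinases and of NF-κB, as well as enzymes of fuel metabolism.

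Levels are given as RPKM, reads per kilobase of transcript scaled to the mapped reads of the sample, for 20668 gene symbols. The 12713 genes with at least 0.5 RPKM in at least 2 of the 10 samples were compared as log2(RPKM + 0.1) with limma. A fold change is therefore on the log2(RPKM + 0.1) scale, which understates the change of rarely read genes. A gene was called upregulated or downregulated when its fold change exceeded 2 with an adjusted p under 0.05. Dex for 4 h upregulated 267 genes, 2.10% of those tested, and downregulated 214, or 1.68%. On the adjusted p alone 3487 genes passed (27.4%), of which 1177 were higher (9.26%) and 2310 lower (18.2%). Both Dex samples lay above both vehicle samples for 18.5% of all genes and below them for 36.6%, and all 481 called genes were separated in this way. Separation of a called gene named below is thus no further evidence. The median change over all genes was -0.05, with quartiles at -0.20 and 0.06. In bulk samples, fewer cells of a type and less RNA per cell cannot be told apart.

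**Figure D1:**
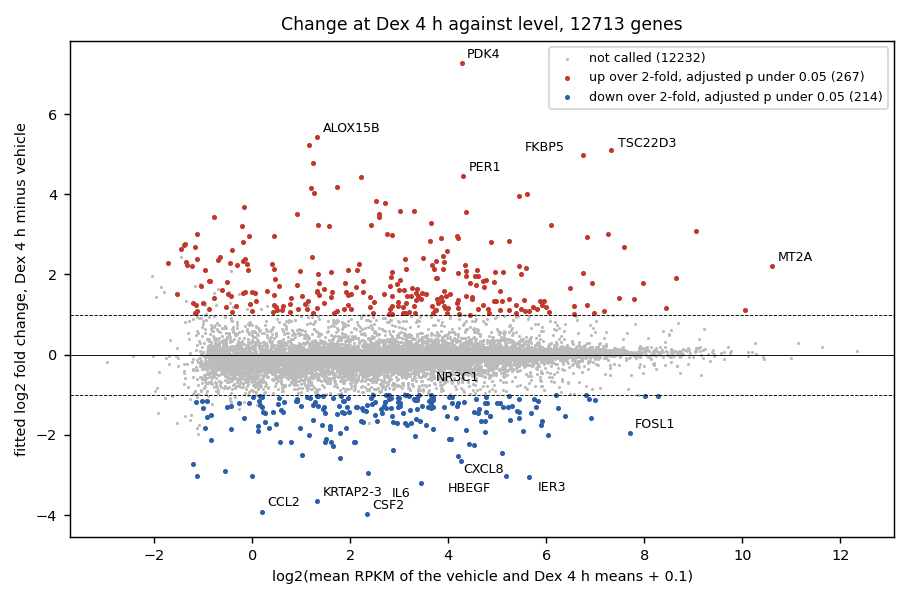
Fitted log2 fold change of Dex 4 h against vehicle (vertical axis) against the log2 of the mean level in RPKM (horizontal axis) for the 12713 genes tested, each point 1 gene. Red points are the 267 genes called up, blue points the 214 called down, and dashed lines mark a 2-fold change. Increases reached further from 0 than decreases.

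The upregulated genes had a median log2 fold change of 1.58, and 95 of them exceeded 4-fold and 32 exceeded 8-fold. The downregulated genes had a median of -1.33, with 32 past 4-fold and 8 past 8-fold. The median level of the upregulated genes was 3.24 RPKM with vehicle and 11.8 RPKM with Dex, and that of the downregulated genes was 9.37 and 3.64 RPKM. Increases included genes that were barely read in untreated cells: for 61 of the 267 both vehicle samples were under 0.5 RPKM, and 22 passed the filter only through the Dex 4 h samples, so that those 22 had to be higher there. Conversely, 22 of the 214 downregulated genes ended under 0.5 RPKM in both Dex samples. By type of transcript, 247 of 11618 protein-coding genes tested were upregulated (2.13%) and 200 downregulated (1.72%), against 2.10% and 1.68% of all genes. Of 446 long non-coding RNAs, 7 were called in each direction (1.57% each way). Of 91 miRNA hairpins, 4 were called in each direction (4.4% each way). Of 118 snoRNAs, 3 were called up (2.54%) and 1 down (0.847%). At the 2-fold threshold lay NBN (1.001) and RHOF (-1.002) just inside, and EZR (0.9996) and TLR5 (-0.9955) just outside.

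The size of the RPKM step that 1 read makes put the depth of the vehicle samples at 51.3 and 51.9 M (mega) reads and that of the Dex 4 h samples at 54.2 and 56.2 M reads, within 51.3 to 62.1 M reads over all 10. The duplicates differed with an SD of 0.26 (vehicle) and 0.27 (Dex 4 h) on the log2 scale, the widest of the 5 groups, and the others lay between 0.19 and 0.22. Between the Dex 4 h samples the difference followed transcript length. In the shortest, middle and longest of 3 equal groups of genes, the medians for replicate 1 minus replicate 2 were 0.12, 0.02 and -0.14. In the same groups the median change from vehicle to Dex 4 h was -0.005, -0.06 and -0.11. Upregulated shares were 1.65%, 2.32% and 2.31%, and downregulated shares 1.08%, 1.77% and 2.17%. The cause of this trend with length was not tested. Vehicle replicate 1 lay above replicate 2 for inflammatory and immediate early genes (values beside those results). With vehicle replicate 2 alone, 291 genes were up and 206 down, and with replicate 1 alone 268 and 257, the lone sample being assumed to vary like the other groups. Of the markers of the line, VIM (vimentin) ranged from 1270 to 1460 RPKM over the 10 samples, and ESR1 was 0 in all 4 samples of the comparison. Of 5 genes expected low or absent, however, ERBB2 (15.9 to 21.6 RPKM) and EPCAM (8.02 to 10.6 RPKM) were read in all 10, and the sum of 7 luminal epithelial markers was 366 and 344 RPKM with vehicle and 293 and 271 RPKM at Dex 4 h, mostly from KRT19. Marker sums for leukocytes (2.81 to 3.25 RPKM), fibroblasts (at most 15.8 RPKM) and adipocytes (0.05 to 0.07 RPKM) were low throughout. The endothelial sum rose from 1.09 and 1.10 to 10.9 and 13.8 RPKM through 1 of its 4 genes, KDR, while PECAM1 read 0.324 and 0.246 RPKM with vehicle and 0.265 and 0.212 RPKM with Dex, and VWF and CDH5 less than that.

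The receptor itself declined. NR3C1 read 22.9 and 20.4 RPKM with vehicle and 9.96 and 12.1 RPKM at Dex 4 h (log2 fold change -0.97, SE 0.09, adjusted p = 3.7e-05). The groups did not overlap, but both Dex samples lay below both vehicle samples for 36.6% of all genes. The change of NR3C1 was just short of 2-fold, and it passed that threshold when vehicle replicate 2 (-1.06) or Dex 4 h replicate 2 (-1.11) was left out. Of the 22 tested genes for GR, its chaperones and its coregulators, none was called, against 3.78% of all genes, and the median was -0.07. On the adjusted p alone 3 were higher and 6 lower, against 9.26% and 18.2% of all genes. The mineralocorticoid receptor gene NR3C2 was lower (-0.92, adjusted p = 0.0089), and the coactivator gene NCOA3 was higher (0.93, adjusted p = 1.9e-04). The chaperone genes HSP90AA1 (-0.07) and HSP90AB1 (-0.06) did not pass. The enzymes that interconvert cortisol and cortisone, HSD11B1 and HSD11B2, were under the filter.

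The strongest increase was that of PDK4, a kinase that switches off pyruvate dehydrogenase and so spares glucose. It read 0.158 and 0.141 RPKM with vehicle and 37.5 and 39.1 RPKM at Dex 4 h (log2 fold change 7.27, SE 0.11, adjusted p = 1.4e-09). TSC22D3 (GILZ), a mediator of anti-inflammatory glucocorticoid action, read 9.79 and 8.22 RPKM with vehicle and 315 and 305 RPKM at Dex 4 h (log2 fold change 5.10, SE 0.07, adjusted p = 1.1e-09). FKBP5, the immunophilin that lowers hormone binding by GR, read 5.94 and 7.06 RPKM with vehicle and 203 and 212 RPKM at Dex 4 h (log2 fold change 4.98, SE 0.07, adjusted p = 1.1e-09). For each of these 3 genes the duplicates lay close together and the groups were more than an order of magnitude apart. TSC22D3 and FKBP5 were well read in vehicle-treated cells too, whereas PDK4 started near absence.

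Several of the largest fold changes belonged to genes that vehicle-treated cells scarcely transcribed. ALOX15B, a 15-lipoxygenase that makes hydroxy fatty acids, read 0.0144 and 0.0142 RPKM with vehicle and 4.95 and 4.69 RPKM at Dex 4 h (5.43), and PNMT, the enzyme that turns noradrenaline into adrenaline, 0.0558 and 0.0735 RPKM with vehicle and 5.00 and 3.87 RPKM at Dex 4 h (4.78, adjusted p = 1.2e-06). SGPP2, a phosphatase of sphingosine 1-phosphate, read 0.163 and 0.128 RPKM with vehicle and 3.87 and 4.61 RPKM at Dex 4 h (4.14, adjusted p = 3.1e-07). ALOX15B passed the filter only through the Dex 4 h samples and so had to be higher there. With log2(RPKM + 1) these changes shrank to 2.52 (ALOX15B) and 2.34 (PNMT) and stayed called. ZDHHC8P1 is a pseudogene (0.0153 and 0.0151 against 4.80 and 3.76 RPKM), whose reads may be shared with its parent gene. IGFBP7-AS1 rose from 0.264 and 0.101 to 4.81 and 3.95 RPKM with a wide error (log2 fold change 4.04, SE 1.02, adjusted p = 0.017). That error takes in the Dex 2 h duplicates, at 0.155 and 4.29 RPKM, since all groups share 1 estimate of the spread. IGFBP7-AS1 lost its call without moderation of the variance, with no filter on low values, and without vehicle replicate 2 (3.62) or Dex 4 h replicate 1 (3.90). The library kit does not mark strand, so that its reads cannot be told from those of its antisense partner. The other members of the 12 largest were PER1, FGD4, TNFAIP8L3 (4.17), a carrier of phosphoinositides, and SMIM3, a small membrane protein that went from 5.17 and 6.14 to 96.7 and 86.4 RPKM (4.00).

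**Figure D2:**
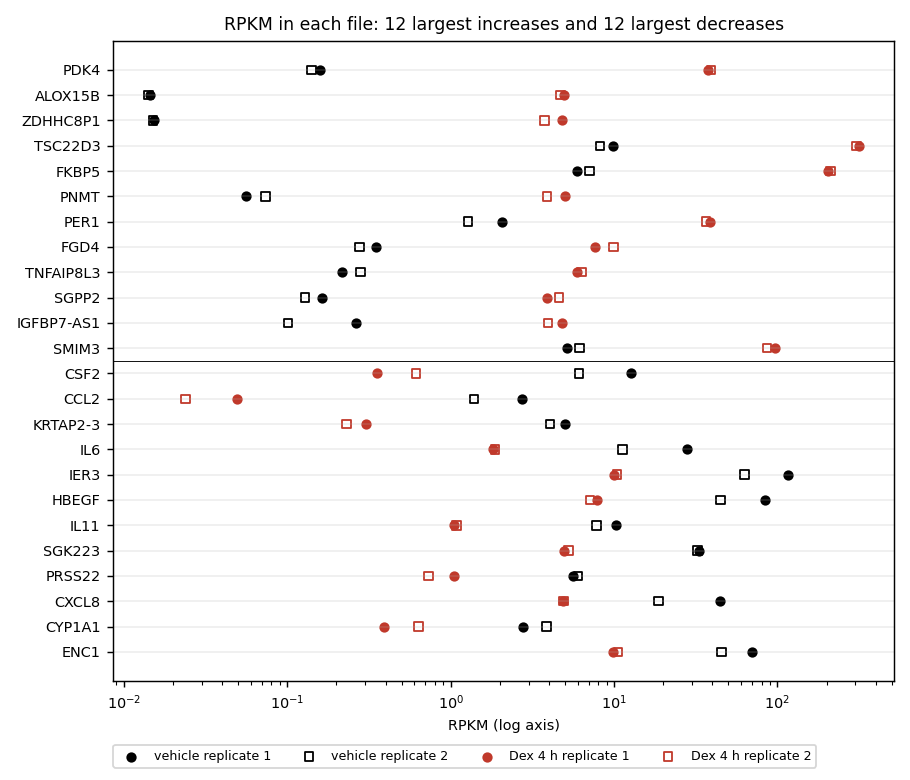
RPKM in each of the 4 samples (horizontal log axis) for the 12 largest increases (top) and the 12 largest decreases (bottom) among genes with a mean of at least 1 RPKM, with vehicle in black and Dex 4 h in red, circles for replicate 1 and squares for replicate 2. The 24 genes were chosen among those without overlap between vehicle and Dex 4 h samples, so their separation is no result. The vehicle duplicates lay further apart for CSF2, IL6 and CXCL8 than for SGK223 or PRSS22.

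Of 26 tested genes on a list of glucocorticoid-responsive reference genes, 22 were upregulated (84.6%, against 2.10% of all genes) and none downregulated. Their median was 2.21 against -0.05 for all genes. The list was drawn from textbook targets, so its direction is not independent evidence. KLF9, a Krüppel-like repressor, read 0.689 and 0.625 RPKM with vehicle and 10.3 and 11.1 RPKM at Dex 4 h (3.83, adjusted p = 2.0e-08). TFCP2L1, an epithelial transcription factor, read 1.12 and 1.19 RPKM with vehicle and 13.8 and 15.9 RPKM at Dex 4 h (3.57, adjusted p = 2.0e-08). Neither pair of groups overlapped, as for every called gene. RGS2 (2.12, adjusted p = 9.8e-07), a regulator of G protein signalling, and GLUL (1.34, adjusted p = 2.8e-08), glutamine synthetase, also rose. ZBTB16, 1 of the 22, was listed at 0 in both vehicle samples and read 0.525 and 0.602 RPKM at Dex 4 h, and since only the Dex 4 h samples took it past the filter it had to be higher there. The 4 tested genes without a call were RASD1 (0.80), STOM (0.72), LCN2 (0.28) and CRISPLD2 (0.09). The hepatic targets TAT, PCK1 and G6PC were under the filter.

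**Figure D3:**
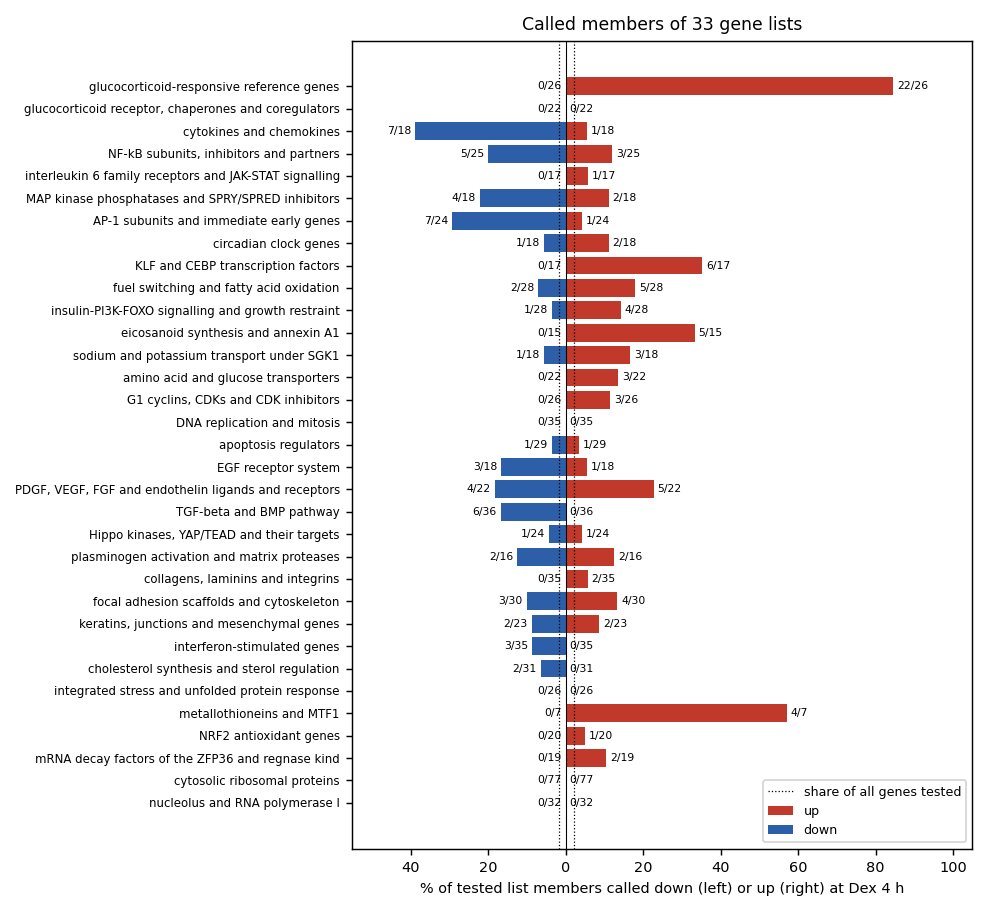
Share of the tested members of each of 33 gene lists that were called up (red, right) or down (blue, left) at Dex 4 h, with the counts at the bar ends. Dotted lines mark the share of all genes tested, 2.10% up and 1.68% down. Reference genes, metallothioneins, KLF and CEBP factors and eicosanoid genes had the highest upregulated shares. Cytokines, AP-1 genes, MAP kinase inhibitors and NF-κB genes had the highest downregulated shares. Of the 5 eicosanoid genes called up, 2 passed the filter only through the Dex 4 h samples and could only be called up, as did 1 reference gene.

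Transcription factor genes of the KLF and CEBP families were called upwards. Of 17 tested members 6 were up (35.3%, against 2.10% of all genes) and none down, with a median of 0.56. CEBPB, a bZIP factor of inflammation and adipogenesis, read 25.5 and 26.9 RPKM with vehicle and 207 and 198 RPKM at Dex 4 h (2.94, adjusted p = 6.8e-09). Its relative CEBPD went from 12.5 and 9.40 to 37.9 and 34.96 RPKM (1.74, adjusted p = 7.7e-06), and KLF15, a regulator of amino acid and fat use, from 1.75 and 1.34 to 12.6 and 12.96 RPKM (2.98, adjusted p = 1.1e-07). As for every gene called up, the Dex samples exceeded the vehicle samples without overlap in all 3. KLF7 (1.56) and KLF13 (1.37) completed the called members. KLF4 (0.97), KLF6 (0.73) and KLF5 (0.56) passed the adjusted p but not the 2-fold threshold, and CEBPA and CEBPE were under the filter.

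Among 18 tested clock genes the period gene PER1, a repressor of the circadian oscillator and itself a GR target, stood out at 2.07 and 1.28 RPKM with vehicle and 38.6 and 36.6 RPKM at Dex 4 h (log2 fold change 4.45, SE 0.17, adjusted p = 1.5e-07). The bZIP repressor NFIL3 rose from 12.6 and 10.1 to 25.4 and 25.4 RPKM (1.17, adjusted p = 1.3e-05). BHLHE40 fell from 93.98 and 63.1 to 34.7 and 34.9 RPKM (-1.14, adjusted p = 3.4e-04), although without vehicle replicate 1 its change was -0.86. The core activators ARNTL (0.18) and NPAS2 (0.07) did not pass, and PER2 (-0.35) and PER3 (-0.21) did not either. The median of the list was -0.07, close to that of all genes.

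Metallothioneins, cysteine-rich proteins that bind zinc and copper, were tested together with their zinc-sensing activator MTF1. Of the 7 genes 4 rose (57.1%, against 2.10% of all genes), with a median of 2.20. MT2A was among the most abundant transcripts and read 546 and 564 RPKM with vehicle and 2824 and 2295 RPKM at Dex 4 h (2.20, adjusted p = 1.6e-07). MT1X read 32.5 and 35.1 RPKM with vehicle and 280.5 and 261 RPKM at Dex 4 h (3.00, adjusted p = 1.5e-09), and MT1E reached 1024 and 891 RPKM from 109 and 116 RPKM (3.08, adjusted p = 4.3e-09). MT1F changed by 0.43 and MT1A by 0.21, neither past 2-fold, and MTF1 by -0.12. These genes are close copies of each other, so the split of reads among the MT1 genes is uncertain.

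Genes of fuel use changed in both directions. Of 28 tested genes for fuel switching and fatty acid oxidation, 5 rose (17.9%) and 2 fell (7.14%), against 2.10% and 1.68% of all genes. ANGPTL4, an inhibitor of lipoprotein lipase, read 2.70 and 3.65 RPKM with vehicle and 41.9 and 34.3 RPKM at Dex 4 h (3.55, adjusted p = 8.1e-07), the lipid droplet protein gene PLIN2 18.5 and 16.9 RPKM with vehicle and 73.1 and 69.3 RPKM at Dex 4 h (2.00, adjusted p = 2.8e-08), and TXNIP, which restrains glucose uptake, 112 and 113 RPKM with vehicle and 380.5 and 403 RPKM at Dex 4 h (1.80, adjusted p = 1.4e-08). ACSL1, which activates long-chain fatty acids, rose by 1.81. PDP1, the phosphatase that opposes PDK4, fell from 52.9 and 40.3 to 19.3 and 20.9 RPKM (-1.20, adjusted p = 3.3e-05), and HK2, hexokinase 2, from 16.3 and 13.2 to 4.95 and 6.43 RPKM (-1.36, adjusted p = 7.0e-05). PDK1, PDK2 and PDK3 moved by -0.28, -0.06 and -0.22 and did not pass. The oxidation enzymes ACADVL (0.01) and ACADM (-0.11) did not pass either, and without vehicle replicate 2 the list held 4 downregulated genes.

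In the 300 bases around its start (250 before, 50 after), TXNIP carried 1 of the 3 palindromic glucocorticoid response elements, GNACA and TGTNC spaced by 3 bases, found among 255 upregulated promoters (1.18%). Over all 12185 promoters with a start site, 22 held that pattern (0.181%), and none of 204 downregulated promoters did. The others were those of RGS19 and SAA1. The promoter stretch of TXNIP is shown because it belongs to a named upregulated gene, and binding of GR to it was not tested here. Its match, in capitals, begins 175 bases before the start site (GRCh37, 5′ to 3′).
TXNIP, chr1:145438290-145438352, plus strand: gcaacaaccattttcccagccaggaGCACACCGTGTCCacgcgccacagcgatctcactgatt
Most GR binding lies outside such windows, and the share of promoters is a description without a test.

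Genes of insulin signalling changed in both directions. IRS2, an insulin receptor substrate, read 9.05 and 8.78 RPKM with vehicle and 35.1 and 42.8 RPKM at Dex 4 h (2.11, adjusted p = 1.7e-07). IRS1, its paralogue, moved the other way, from 13.2 and 14.6 to 5.93 and 7.13 RPKM (-1.08, adjusted p = 1.7e-05), and without Dex 4 h replicate 1 its change was -0.95. DDIT4 (REDD1), an inhibitor of the growth kinase complex mTORC1, read 53.8 and 49.1 RPKM with vehicle and 335 and 329 RPKM at Dex 4 h (2.69, adjusted p = 3.6e-09). The forkhead genes FOXO1 (1.73) and FOXO3 (1.13, and 0.99 with a pseudocount of 1) rose as well. Thus 4 of 28 tested genes were up (14.3%) and 1 was down (3.57%), against 2.10% and 1.68% of all genes. The kinase genes AKT1 (0.04) and PIK3CA (-0.03) and the receptor genes INSR (0.21) and IGF1R (-0.12) did not pass.

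Of the eicosanoid list, 15 of 27 genes were tested and 5 rose (33.3%, against 2.10% of all genes), with ALOX15B first. FPR1, a receptor for formyl peptides and annexin A1, read 3.93 and 3.72 RPKM with vehicle and 12.7 and 11 RPKM at Dex 4 h (1.60, adjusted p = 2.5e-06), and PTGER2, a prostaglandin E2 receptor, 0.299 and 0.396 RPKM with vehicle and 1.42 and 1.02 RPKM at Dex 4 h (1.55, adjusted p = 9.5e-04). PTGS1 (1.13) and ALOX5AP (1.09) rose from under 0.3 RPKM. Only 2 of the 5 calls were left with a pseudocount of 1 or with a mean of at least 1 RPKM, ALOX15B and PTGS1, 2 of the 5, passed the filter only through Dex 4 h and could only be called up, and ALOX5AP lost its call without vehicle replicate 2 (0.90) or Dex 4 h replicate 1 (0.89). Annexin A1 itself, ANXA1, a classical glucocorticoid-induced protein, changed by -0.05 and did not pass. PTGS2, inducible cyclooxygenase 2, was higher by 0.83 on the adjusted p alone.

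Genes of sodium handling centred on SGK1, a kinase that protects epithelial sodium channels. SGK1 read 18.7 and 12.3 RPKM with vehicle and 71.8 and 69.8 RPKM at Dex 4 h (2.22, adjusted p = 8.1e-06). SCNN1A, the alpha subunit of that channel, rose from 4.98 and 4.38 to 11.8 and 10.1 RPKM (1.21, adjusted p = 1.7e-05), while SCNN1B and SCNN1G were under the filter. NEDD4L, the ubiquitin ligase that removes the channel, fell by 1.05 and its relative NEDD4 rose by 1.11, both close to the threshold: NEDD4L lost its call without vehicle replicate 1 (-0.99) or Dex 4 h replicate 1 (-0.97), NEDD4 without Dex 4 h replicate 2 (0.94). In all, 3 of 18 tested genes rose (16.7%) and 1 fell (5.56%), against 2.10% and 1.68% of all genes. Of 22 amino acid and glucose transporters 3 rose (13.6%, against 2.10% of all genes) and none fell. The arginine carrier SLC7A2 led them, at 2.00 and 2.44 RPKM with vehicle and 19.7 and 25.4 RPKM at Dex 4 h (3.28, adjusted p = 1.7e-07). SLC38A2 (1.08, and 0.98 without Dex 4 h replicate 2) and SLC7A7 (1.07, and 0.63 with a pseudocount of 1) were the others, and the glucose transporter genes SLC2A1 (-0.29) and SLC2A3 (-0.13) were not called.

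Inhibitors of the cell cycle rose, while the replication machinery moved by small amounts. CDKN1C (p57), a CDK inhibitor, read 4.95 and 3.25 RPKM with vehicle and 33.7 and 30.6 RPKM at Dex 4 h (2.97, adjusted p = 1.0e-06). CDKN1A (p21) read 134 and 110.3 RPKM with vehicle and 321 and 318 RPKM at Dex 4 h (1.39, adjusted p = 1.7e-06), and the stress gene GADD45B rose by 1.34. Thus 3 of 26 G1 genes were called up and none down, with CCND1 (cyclin D1) just short of the threshold at -0.99, adjusted p = 9.1e-07. Against 3.78% of all genes called, none of 35 genes of DNA replication and mitosis was. On the adjusted p alone 19 of them were lower and 1 higher, against 18.2% and 9.26% of all genes, with a median of -0.17. CDC6 (-0.86, adjusted p = 1.3e-05) and MCM10 (-0.83, adjusted p = 8.7e-05), both needed to start replication, lay lowest, and CDC20 (0.86, adjusted p = 1.8e-06), an activator of mitotic exit, was the gene that was higher.

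Factors that destabilise inflammatory mRNAs rose in 2 of 19 cases (10.5%, against 2.10% of all genes). ZFP36 (tristetraprolin), which binds AU-rich elements, read 6.19 and 8.48 RPKM with vehicle and 55.2 and 47.5 RPKM at Dex 4 h (2.80, adjusted p = 4.2e-07), and ZFP36L2 read 16.2 and 18.96 RPKM with vehicle and 78.8 and 79.2 RPKM at Dex 4 h (2.17, adjusted p = 7.1e-08). Both were clear of vehicle in each sample, as was every called gene. The deadenylase genes CNOT7 (-0.10) and CNOT8 (-0.00) and the stabilising factor gene ELAVL1 (-0.01) did not pass, and the ribonuclease gene ZC3H12A (regnase-1) was higher by 0.67.

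Cytokine genes carried the deepest decreases. Of 18 tested cytokines and chemokines, 7 were downregulated (38.9%) and 1 upregulated (5.56%), against 1.68% and 2.10% of all genes. Their median was -0.72. CSF2, the growth factor GM-CSF, read 12.8 and 6.08 RPKM with vehicle and 0.352 and 0.612 RPKM at Dex 4 h (log2 fold change -3.97, SE 0.31, adjusted p = 1.6e-05). CCL2, which attracts monocytes, read 2.72 and 1.39 RPKM with vehicle and 0.0494 and 0.0238 RPKM at Dex 4 h (log2 fold change -3.91, SE 0.30, adjusted p = 1.3e-05), and IL6, a cytokine that activates STAT3, 28.1 and 11.2 RPKM with vehicle and 1.82 and 1.86 RPKM at Dex 4 h (log2 fold change -3.20, SE 0.32, adjusted p = 7.8e-05). As for every gene called down, all Dex samples of the 3 genes lay below all vehicle samples. The vehicle samples lay far apart, with replicate 1, the one named for 2 h, the higher. CCL2 ended near the level of single reads. The change of IL6 was -2.54 without vehicle replicate 1 and -3.86 without replicate 2. CXCL8 (interleukin 8), a neutrophil attractant that the list held under an older symbol and that stood among the 12 largest decreases, read 44.2 and 18.7 RPKM with vehicle and 4.85 and 4.90 RPKM at Dex 4 h (-2.54, adjusted p = 2.5e-04), with -1.92 and -3.16 on leaving out the same samples.

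IL11, a relative of IL6, read 10.2 and 7.80 RPKM with vehicle and 1.05 and 1.08 RPKM at Dex 4 h (-2.95, adjusted p = 1.1e-07) and LIF 43.3 and 28.8 RPKM with vehicle and 12.7 and 12.7 RPKM at Dex 4 h (-1.47, adjusted p = 9.9e-05), both with closer vehicle duplicates. IL1B read 1.05 and 0.437 RPKM with vehicle and 0.185 and 0.166 RPKM at Dex 4 h (-1.52, adjusted p = 0.0059), and without vehicle replicate 1 its change of -0.96 was no longer past 2-fold, nor was that of -0.55 with a pseudocount of 1. The exception was CSF3, the granulocyte growth factor G-CSF, which rose from 0.221 and 0.185 to 3.75 and 3.01 RPKM (3.52, adjusted p = 6.3e-07). CXCL1 (-0.62) and CXCL3 (-0.32) did not pass, and CXCL2 (-0.52, adjusted p = 0.0053) and CSF1 (-0.78, adjusted p = 9.8e-06) were lower by less than 2-fold. Over the list, vehicle replicate 1 exceeded replicate 2 by a median of 0.41. Of the receptors and kinases through which the IL6 family acts, 1 of 17 was called up (5.88%, against 2.10% of all genes) and none down. LIFR, the LIF receptor, rose from 5.13 and 4.73 to 12.5 and 15.2 RPKM (1.47, adjusted p = 3.5e-06). The shared receptor subunit IL6ST (0.23) and STAT3 (-0.10) did not pass, and the feedback inhibitor SOCS3 was lower (-0.84, adjusted p = 0.0016).

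Genes of the NF-κB pathway changed in both directions. Of 25 tested genes 3 rose (12%) and 5 fell (20%), against 2.10% and 1.68% of all genes, with a median of -0.28. NFKBIA (IκBα), which holds NF-κB in the cytoplasm, read 47.9 and 37.8 RPKM with vehicle and 143 and 128 RPKM at Dex 4 h (1.67, adjusted p = 2.4e-06). TNFAIP3 (A20), a ubiquitin editor that ends NF-κB signalling, rose from 5.35 and 3.32 to 9.68 and 10.0 RPKM (1.20, adjusted p = 9.7e-04), and by 0.87 without vehicle replicate 2. BIRC3 (cIAP2), an inhibitor of apoptosis, read 17.1 and 8.72 RPKM with vehicle and 36.7 and 43.03 RPKM at Dex 4 h (1.70, adjusted p = 6.7e-04). Both Dex samples exceeded both vehicle samples for all 3 genes, as for every gene called up.

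Decreases in the same list fell on TRAF1, an adaptor of TNF receptors, at 14.9 and 9.59 RPKM with vehicle and 2.07 and 2.36 RPKM at Dex 4 h (-2.38, adjusted p = 7.4e-06), and on BCL3, a nuclear IκB protein, at 18.7 and 9.29 RPKM with vehicle and 3.71 and 3.90 RPKM at Dex 4 h (-1.76, adjusted p = 7.3e-04). ICAM1, the adhesion molecule that binds leukocytes, read 51.6 and 47.8 RPKM with vehicle and 20.1 and 19.8 RPKM at Dex 4 h (-1.31, adjusted p = 9.9e-08) and NFKBIE (IκBε) 38.5 and 32.7 RPKM with vehicle and 14.1 and 13.5 RPKM at Dex 4 h (-1.35, adjusted p = 1.0e-06). TNFAIP2 was near the threshold (-1.04, and -0.94 without vehicle replicate 1, -0.92 without Dex 4 h replicate 2). Thus the inhibitors did not move together, since NFKBIA rose and NFKBIE fell. Among the subunits RELA (0.01) did not pass, and NFKB1 (-0.50, adjusted p = 6.7e-05), RELB (-0.51, adjusted p = 5.3e-04) and REL (-0.95, adjusted p = 0.017) were lower by less than 2-fold.

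An NF-κB pattern, GGGA and TTTCC spaced by 1 base on either strand, occurred in 70 of 12185 promoter windows (0.574%), in 4 of 255 upregulated (1.57%) and in 1 of 204 downregulated windows (0.49%). The 3 named genes that held one are shown because they moved in opposite directions, with the match in capitals, on the gene's strand in GRCh37.
IL6, chr7:22766721-22766780, plus strand: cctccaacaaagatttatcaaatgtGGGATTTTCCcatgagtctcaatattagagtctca
NFKBIA, chr14:35874002-35874061, minus strand: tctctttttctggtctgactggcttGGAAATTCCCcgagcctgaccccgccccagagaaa
TNFAIP3, chr6:138188304-138188363, plus strand: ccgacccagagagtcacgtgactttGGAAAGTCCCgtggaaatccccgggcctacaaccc
The matches begin 73, 81 and 67 bases before the start sites. IL6 fell, and the NF-κB inhibitor genes NFKBIA and TNFAIP3 rose, with this pattern at a similar distance.

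AP-1 is a dimer of FOS and JUN proteins, and its genes belong to the immediate early class. Of 24 tested genes 7 fell (29.2%) and 1 rose (4.17%), against 1.68% and 2.10% of all genes, with a median of -0.71. FOSL1 (FRA-1), the FOS relative with the highest level here, read 385 and 280.1 RPKM with vehicle and 82.9 and 86.2 RPKM at Dex 4 h (-1.96, adjusted p = 2.9e-06), and JUN 70.4 and 59.4 RPKM with vehicle and 21.4 and 21.9 RPKM at Dex 4 h (-1.57, adjusted p = 4.8e-07). IER3, a stress-induced gene, read 116 and 62.9 RPKM with vehicle and 10.02 and 10.4 RPKM at Dex 4 h (-3.05, adjusted p = 8.7e-06). Both Dex samples were below both vehicle samples in each, as for every gene called down. IER2 (-1.42), PHLDA1 (-1.54), NR4A2 (-1.43, and -0.81 with a pseudocount of 1) and ATF3 (-1.28) were the other decreases. BATF, a bZIP partner of JUN, rose from 0.955 and 0.901 to 9.79 and 9.30 RPKM (3.23, adjusted p = 1.7e-07). FOS (0.18), JUNB (-0.06), JUND (-0.02) and EGR1 (0.49) did not pass. Over the list vehicle replicate 1 exceeded replicate 2 by a median of 0.50, and without vehicle replicate 2 the number of decreases was 12.

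**Figure D4:**
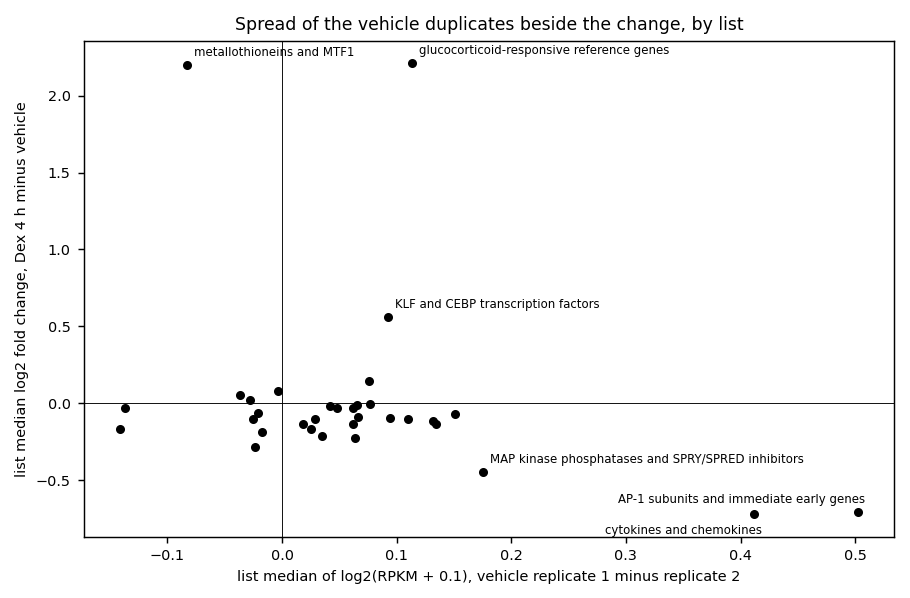
Median log2 fold change of Dex 4 h against vehicle (vertical axis) beside the median difference between the vehicle duplicates, replicate 1 minus replicate 2 (horizontal axis), for the 33 gene lists, each point 1 list. Cytokines (0.41, -0.72) and AP-1 genes (0.50, -0.71) lie apart at the lower right, while metallothioneins and reference genes lie high with vehicle duplicates within 0.12 of each other.

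The AP-1 site TGACTCA, on either strand, occurred in 346 of 12185 promoter windows (2.84%), in 16 of 204 downregulated windows (7.84%) and in 14 of 255 upregulated windows (5.49%). The windows of named genes are printed because cytokine, protease receptor, junction and NF-κB inhibitor genes shared the site, and 1 upregulated gene, MT2A, is set beside them. Capitals mark the match.
CXCL8, chr4:74606124-74606180, plus strand: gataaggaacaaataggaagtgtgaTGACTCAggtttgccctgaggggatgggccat
IL11, chr19:55881896-55881952, minus strand: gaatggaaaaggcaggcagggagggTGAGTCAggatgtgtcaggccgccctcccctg
PLAUR, chr19:44174476-44174532, minus strand: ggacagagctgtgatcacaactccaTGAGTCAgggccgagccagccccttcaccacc
CLDN4, chr7:73245140-73245196, plus strand: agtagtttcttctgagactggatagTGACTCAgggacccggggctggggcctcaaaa
NFKBIE, chr6:44233452-44233508, minus strand: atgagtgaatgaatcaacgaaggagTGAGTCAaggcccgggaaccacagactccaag
MT2A, chr16:56642367-56642423, plus strand: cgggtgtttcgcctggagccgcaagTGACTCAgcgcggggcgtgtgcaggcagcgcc
Each stretch is 57 bases on the gene's strand of GRCh37, and the matches begin 137, 96, 186, 161, 195 and 104 bases before the start sites. The site was thus present in promoters of genes that fell and of a gene that rose.

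Feedback on MAP kinases changed in both directions, with a median of -0.45. Of 18 tested genes 2 were up (11.1%) and 4 down (22.2%), against 2.10% and 1.68% of all genes. DUSP1, a phosphatase of p38 and JNK and a classical glucocorticoid target, read 14.6 and 11.6 RPKM with vehicle and 122 and 125 RPKM at Dex 4 h (3.24, adjusted p = 2.0e-08). DUSP4, a phosphatase of ERK in the nucleus, fell from 43.04 and 45.5 to 18.1 and 20.1 RPKM (-1.21, adjusted p = 4.1e-07), and DUSP5, also nuclear, from 100.4 and 58.5 to 29.1 and 33.4 RPKM (-1.30, adjusted p = 0.001). Without vehicle replicate 1 the change of DUSP5 was -0.91. SPRY4, a Sprouty inhibitor of ERK signalling, rose by 1.15 (0.93 without vehicle replicate 2), DUSP2 changed by -1.31 (-0.54 with a pseudocount of 1), and RASA1, a GTPase activator of RAS, by -1.04 (-0.98 with median scaling). DUSP6, the cytoplasmic ERK phosphatase, changed by 0.17 and did not pass.

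Ligands of the EGF receptor fell while an inhibitor of the receptor rose. HBEGF read 84.2 and 44.98 RPKM with vehicle and 7.82 and 7.12 RPKM at Dex 4 h (-3.03, adjusted p = 1.0e-05), EREG (epiregulin) 5.39 and 3.84 RPKM with vehicle and 1.13 and 1.25 RPKM at Dex 4 h (-1.85, adjusted p = 9.4e-06) and TGFA 18.5 and 15.7 RPKM with vehicle and 6.55 and 7.04 RPKM at Dex 4 h (-1.31, adjusted p = 2.8e-06). ERRFI1 (MIG6), which binds and inhibits the EGF receptor kinase, read 198 and 138 RPKM with vehicle and 603 and 653 RPKM at Dex 4 h (1.92, adjusted p = 6.2e-06). In each of the 4 genes the groups were apart, as for every called gene. The receptor gene EGFR changed by 0.08 and did not pass, with Dex replicates of 26.7 and 47.9 RPKM on either side of the vehicle samples, and ERBB2 changed by 0.22. With 1 of 18 up (5.56%, against 2.10% of all genes) and 3 down (16.7%, against 1.68%), the called genes were ligands and 1 inhibitor.

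Vascular factors changed in both directions. VEGFA read 124 and 93.3 RPKM with vehicle and 42.2 and 43.7 RPKM at Dex 4 h (-1.32, adjusted p = 5.0e-05), VEGFC 38.7 and 47.4 RPKM with vehicle and 15.2 and 14.5 RPKM at Dex 4 h (-1.52, adjusted p = 1.7e-06) and FGF5 3.62 and 3.31 RPKM with vehicle and 0.687 and 0.888 RPKM at Dex 4 h (-2.02, adjusted p = 3.5e-06). PDGFB fell from 7.19 and 2.11 to 0.887 and 0.773 RPKM (-2.11, adjusted p = 0.0058), and its change was -1.25 without vehicle replicate 1 and -2.97 without replicate 2. Without moderation of the variance it was not called (adjusted p = 0.055 in limma). Endothelins are vasoconstrictor peptides that also act on tumour cells. EDN2 read 6.90 and 3.83 RPKM with vehicle and 85.2 and 78.6 RPKM at Dex 4 h (3.97, adjusted p = 1.0e-06), and the receptor gene EDNRA rose from 0.0940 and 0.158 to 0.565 and 0.712 RPKM (1.72, adjusted p = 9.5e-04), or by 0.54 and without a call with a pseudocount of 1. EDN1 rose by 1.24 but by 0.66 without vehicle replicate 2. KDR, the VEGF receptor 2, read 0.751 and 0.814 RPKM with vehicle and 10.7 and 13.6 RPKM at Dex 4 h (3.78, adjusted p = 8.0e-08), and PGF, placental growth factor, rose by 1.44. In this list 5 of 22 genes were up (22.7%) and 4 down (18.2%), against 2.10% and 1.68% of all genes.

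TGF-β and BMP genes were called in 1 direction only among 36 tested, with 6 down (16.7%, against 1.68% of all genes). The inhibitors SMAD7, at 9.90 and 7.72 RPKM with vehicle and 2.67 and 2.73 RPKM at Dex 4 h (-1.66, adjusted p = 4.4e-06), and SMURF2, at 94.9 and 87.2 RPKM with vehicle and 27.6 and 30.1 RPKM at Dex 4 h (-1.66, adjusted p = 6.8e-08), fell together with the signal transducer SMAD3 (-1.21, adjusted p = 3.8e-07). NOG (noggin), which sequesters BMPs, read 57.1 and 58.95 RPKM with vehicle and 19.3 and 18.4 RPKM at Dex 4 h (-1.62, adjusted p = 2.9e-08), and FST (follistatin), which sequesters activins, 39.8 and 39.96 RPKM with vehicle and 15.6 and 13.9 RPKM at Dex 4 h (-1.43, adjusted p = 5.3e-07). INHBA, the activin A subunit, fell from 2.85 and 2.62 to 1.02 and 1.14 RPKM (-1.27, adjusted p = 8.5e-05), a change of -0.85 with a pseudocount of 1. The called genes were therefore both mediators and antagonists of the pathway. TGFB1 (-0.11) and TGFB2 (-0.11) did not pass, and TGFBR2 was higher by 0.75 on the adjusted p. The YAP/TEAD list had 1 increase, ANKRD1 (1.17, and 0.70 without vehicle replicate 2), and 1 decrease, CTGF (-1.03, and -0.57 without vehicle replicate 1), among 24 genes. Each was 4.17% of the list, against 2.10% up and 1.68% down of all genes. CTGF also lost its call without Dex 4 h replicate 2 (-0.93), with median scaling (-0.96) and without moderation of the variance (adjusted p = 0.072 in limma).

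Genes at the cell surface and matrix moved singly. ITGA5, the fibronectin receptor subunit, read 44.2 and 39.8 RPKM with vehicle and 169 and 178 RPKM at Dex 4 h (2.04, adjusted p = 2.4e-08), the one call besides ITGA10 (1.48) among 35 collagens, laminins and integrins. These calls made up 5.71% of that list, against 2.10% of all genes called up. PLAUR, the receptor of urokinase, fell from 61.8 and 65.6 to 23.7 and 23.3 RPKM (-1.43, adjusted p = 2.9e-08). The proteases ADAMTS9 (2.42) and ADAMTS1 (-2.18) moved in opposite directions, and 4 of 16 genes of plasminogen activation and matrix proteases were called, 2 each way. That was 12.5% each way, against 2.10% up and 1.68% down of all genes.

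Among 30 focal adhesion and cytoskeleton genes 4 rose (13.3%) and 3 fell (10%), against 2.10% and 1.68% of all genes. RHOB, a GTPase of endosomes, read 10.4 and 8.08 RPKM with vehicle and 66.2 and 66.5 RPKM at Dex 4 h (2.84, adjusted p = 6.1e-08), and FGD4, an exchange factor for CDC42, 0.347 and 0.276 RPKM with vehicle and 7.69 and 9.91 RPKM at Dex 4 h (4.43, adjusted p = 1.1e-07). RHOU rose by 1.49 and the scaffold gene NEDD9 by 1.23, or 0.80 without vehicle replicate 2. The GTPase-activating protein genes DLC1 (-1.31, adjusted p = 6.2e-06) and ARHGAP29 (-1.10, adjusted p = 1.5e-07) and the CDC42 exchange factor gene FGD6 (-1.30, adjusted p = 2.1e-04, and -0.95 with a pseudocount of 1) fell. In the list of keratins, junctions and mesenchymal genes PKP2 (plakophilin 2, 1.47) and SNAI2 (Slug, 1.19) rose, and the tight junction genes CLDN1 (-1.62) and CLDN4 (-1.31) fell, of 23 tested. That was 8.7% each way, against 2.10% up and 1.68% down of all genes. VIM (-0.12) and ZEB1 (-0.01) did not pass, and CDH1 was under the filter.

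Interferon-stimulated genes were called down in 3 of 35 cases (8.57%, against 1.68% of all genes) and up in none (median -0.22). IRF1 read 21.1 and 14.7 RPKM with vehicle and 7.22 and 6.63 RPKM at Dex 4 h (-1.33, adjusted p = 1.0e-04), IFIT2 15.2 and 11.1 RPKM with vehicle and 3.71 and 4.13 RPKM at Dex 4 h (-1.71, adjusted p = 8.1e-06) and GBP1 17.6 and 17.1 RPKM with vehicle and 7.67 and 7.22 RPKM at Dex 4 h (-1.21, adjusted p = 7.9e-07). On the adjusted p alone 15 of the 35 were lower and 1 higher, against 18.2% and 9.26% of all genes. ISG15 (-0.22) and MX1 (-0.17) stayed within 2-fold. In the apoptosis list of 29 genes, TNFSF10 (TRAIL), a ligand of death receptors, fell from 26.6 and 25.6 to 6.56 and 5.41 RPKM (-2.11, adjusted p = 4.5e-07), and BIRC3 was the one increase. Each was 3.45% of the list, against 1.68% down and 2.10% up of all genes. MCL1 was higher by 0.83, and TNFRSF10B, a TRAIL receptor, lower by a change of -0.90, both within 2-fold.

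The other lists held 2 calls or fewer. Cholesterol genes had 2 decreases among 31 (6.45%, against 1.68% of all genes). These were INSIG1 (-1.14, and -0.82 without vehicle replicate 1) and ABCA1 (-1.15, and -0.90 with a pseudocount of 1). GCLC, the catalytic subunit for glutathione synthesis, read 8.80 and 10.97 RPKM with vehicle and 36.9 and 40.3 RPKM at Dex 4 h (1.96, adjusted p = 4.5e-07). It was the only call among 20 NRF2 genes (5% up, against 2.10% of all genes), with NQO1 at -0.12. None of 26 genes of the integrated stress and unfolded protein responses was called (ATF4 -0.08, HSPA5 -0.02). Nor was any of 77 ribosomal protein genes (median 0.08) or of 32 genes of the nucleolus and RNA polymerase I (median -0.17). With 3.78% of all genes called, a list of 26 or 32 genes may hold no call. Of those 32 genes, 11 were lower on the adjusted p, against 18.2% of all genes. The remaining decreases among the 12 largest, outside the lists, were CYP1A1, SGK223, PRSS22, KRTAP2-3 and ENC1. SGK223, a pseudokinase scaffold, read 33.1 and 32.5 RPKM with vehicle and 4.96 and 5.28 RPKM at Dex 4 h (-2.66, adjusted p = 2.2e-09), PRSS22, a serine protease, 5.57 and 6.01 RPKM with vehicle and 1.05 and 0.732 RPKM at Dex 4 h (-2.59, adjusted p = 1.1e-06), and ENC1, an actin-binding protein, 70.2 and 45.6 RPKM with vehicle and 9.78 and 10.6 RPKM at Dex 4 h (-2.46, adjusted p = 3.5e-06). KRTAP2-3 (-3.66, adjusted p = 4.7e-06) has near-identical neighbours, so the origin of its reads is uncertain.

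The 4 h samples were next set beside Dex 2 h and CpdA 4 h. A direct limma comparison of Dex 4 h with Dex 2 h, which uses no vehicle sample, called 98 genes (0.771%), 50 higher at 4 h (0.393%) and 48 lower (0.378%). Of the 267 upregulated genes 42 were called further up at 4 h than at 2 h and 1 the other way, and of the 214 downregulated genes 35 were called further down and none the other way. FKBP5 read 75.03 and 73.4 RPKM at 2 h and 203 and 212 RPKM at 4 h (1.48, SE 0.07, adjusted p = 2.1e-05), and KDR went from 4.29 and 4.80 to 10.7 and 13.6 RPKM (1.39, SE 0.13, adjusted p = 3.2e-04). TRAF1 read 4.42 and 4.96 RPKM at 2 h and 2.07 and 2.36 RPKM at 4 h (-1.05, SE 0.17, adjusted p = 0.0041), and DUSP5 went from 61.2 and 65.9 to 29.1 and 33.4 RPKM (-1.02, SE 0.19, adjusted p = 0.0099). For TSC22D3 the difference between the times was 0.03, SE 0.07, adjusted p = 0.8, and for PER1 0.05, SE 0.17, adjusted p = 0.88. PDK4 was lower at 4 h than at 2 h within 2-fold (-0.87, SE 0.11, adjusted p = 0.0015). With vehicle as a shared reference, the median of the 267 genes was 1.58 at 4 h and 1.11 at 2 h, and that of the 214 genes -1.33 and -0.77. The genes were chosen at 4 h, which favours larger changes at 4 h in both comparisons. The values against vehicle also lean on the same vehicle samples.

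**Figure D5:**
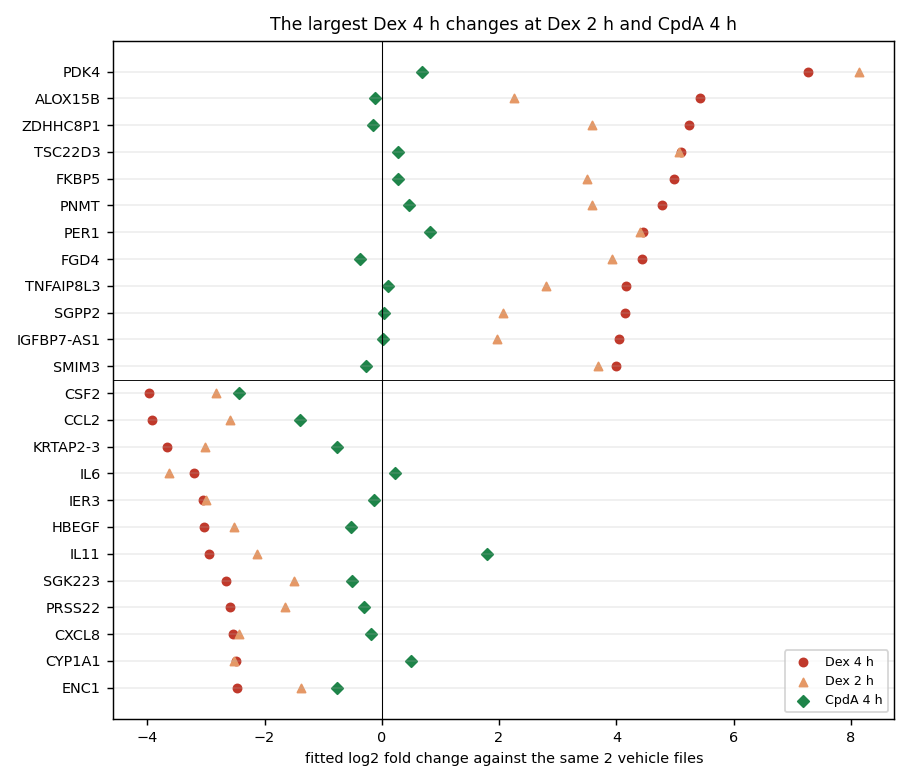
Fitted log2 fold change against the same 2 vehicle samples (horizontal axis) of the 24 genes with the largest changes at Dex 4 h, for Dex 4 h (red circles), Dex 2 h (orange triangles) and CpdA 4 h (green diamonds). Dex 2 h lies on the side of Dex 4 h for all 24 genes, though for IGFBP7-AS1 the Dex 2 h samples read 0.155 and 4.29 RPKM. CpdA 4 h lies within 1 of 0 for 21 of them, the exceptions being CSF2, CCL2 and IL11.

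Against CpdA at the same time, Dex 4 h differed over 2-fold in 552 genes (4.34%), 330 higher with Dex (2.60%) and 222 lower (1.75%). The doses differ, 100 nM of Dex and 10 μM of CpdA. Of the 267 upregulated genes 232 were also called higher than in CpdA samples, and 1 lower. Of the 214 downregulated genes 117 were called lower and 1 higher. These genes were chosen through the same Dex 4 h samples, which favours the same direction here. Among the upregulated genes, 22 passed the filter only through those samples and had to be higher there. TSC22D3 read 10.5 and 11.3 RPKM with CpdA (Dex minus CpdA 4.82, SE 0.07, adjusted p = 1.7e-09), and DUSP1 46.8 and 47.4 RPKM (1.39, SE 0.08, adjusted p = 2.6e-06). IL6 read 21.97 and 19.6 RPKM (-3.42, SE 0.32, adjusted p = 4.0e-05), and IL11, at 30.6 and 31.8 RPKM with CpdA, was above all vehicle and Dex samples (-4.74, SE 0.10, adjusted p = 7.2e-09). For some downregulated genes the difference between the ligands was under 2-fold: ICAM1 read 22.7 and 21.96 RPKM with CpdA (-0.16, SE 0.05, adjusted p = 0.023), and NOG 24.6 and 23.1 RPKM (-0.34, SE 0.05, adjusted p = 4.7e-04). GCLC read 32.2 and 31.5 RPKM with CpdA against 36.9 and 40.3 RPKM with Dex (0.27, SE 0.09, adjusted p = 0.043).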

How the data were processed

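RNA of the 10 samples was sequenced as single-end reads of 50 bases, with 3 samples per lane. Alignment by the authors was with TopHat 2.0.13. They quantified transcripts in Partek Genomics Suite 6.6 and deposited RPKM for 20668 gene symbols. How transcripts were combined into symbols is not given in the sources used here. The submitters' notes name hg19. The 12 ChIP samples were not analysed here.

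Groups were taken from the sample labels. For genes with at least 0.5 RPKM in at least 2 samples, log2(RPKM + 0.1) was taken and 1 limma model over 5 groups of 2 was fitted (limma 3.58.1 in R 4.3.3, eBayes with an abundance trend, Benjamini-Hochberg adjustment over 12713 genes). RPKM are scaled to the reads of each sample, so changes are relative. The fit was tested on simulated data. With 2 samples against 2, a permutation test of a single gene cannot give a p below 0.333, and none was used. Depth was read from the RPKM step of 1 read in small RNAs, with a tolerance of 0.01 for a whole read.

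Named genes were the 12 largest called changes in each direction with a mean of at least 1 RPKM and no overlap between groups. Up to 6 called members per direction of each of 33 gene lists, NR3C1 and the genes nearest the threshold were added. Members of the lists that were not called are quoted for comparison and were chosen after their values were seen. Some members of the lists are counted but not reported here by name. The members and the lists were chosen with earlier results of these data known. The motifs were sought on both strands from 250 bases before to 50 after the GENCODE v44 start site on GRCh37, matched for 12185 genes (95.8%). Python 3.11.15, numpy 2.4.6, pandas 2.3.3, scipy 1.17.1 and matplotlib 3.10.9 were used. The alternatives were pseudocounts of 1 and 0.01, other filters, quantile and median scaling, other variance models, the 4 samples alone, a replicate block and each replicate left out.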

Additional observations from a re-analysis of the deposited data

Results flagged for a closer look

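Among the 24 genes with the largest changes, 10 differed between the Dex time points by the direct limma comparison of 4 h with 2 h (fold over 2, adjusted p under 0.05). Of the upregulated genes, ALOX15B was higher at 4 h by 3.18 on the log2 scale, SGPP2 by 2.07, ZDHHC8P1 by 1.65, FKBP5 by 1.48, TNFAIP8L3 by 1.37 and PNMT by 1.20. ALOX15B read 0.392 and 0.498 RPKM at 2 h and 4.95 and 4.69 RPKM at 4 h. It passed the filter on low values only through the Dex 4 h samples and so had to be higher there. SGPP2 went from 0.944 and 0.912 to 3.87 and 4.61 RPKM. Of the downregulated genes, CCL2 was lower at 4 h with a difference of -1.33, SGK223 with -1.16, CSF2 with -1.15 and ENC1 with -1.08. CCL2 read 0.299 and 0.194 RPKM at 2 h and 0.0494 and 0.0238 RPKM at 4 h, near the level of single reads. All 10 differences continued the direction of the change from vehicle. No gene of the 24 was called in the opposite direction. The 24 genes were chosen as the largest changes at Dex 4 h, and the same Dex 4 h samples enter both comparisons. That choice itself favoured this direction.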

How the results depend on the processing

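No count or named gene changed direction under any alternative. With a pseudocount of 1, 136 genes were downregulated at Dex 4 h rather than 214, 33 genes rather than 98 differed from Dex 2 h, and 364 rather than 552 from CpdA 4 h. A larger pseudocount shrinks the changes of rarely read genes by construction. Without moderation of the variance 60 differed from Dex 2 h, and the cause was not tested. The other planned settings kept these counts within 1.5 times. Leaving out each replicate in turn gave 488 to 528 changed genes, 268 to 291 up and 206 to 257 down, 78 to 140 against Dex 2 h and 548 to 579 against CpdA 4 h. Of 140 named genes 19 lost their call with a pseudocount of 1 and 6 to 10 when 1 replicate was left out. Upregulated genes made up 55.5% of the calls, 59.1% with quantile normalization and 61.3% with median scaling.

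Deviations of same-numbered samples correlated by 0.05 on average, from -0.06 to 0.20 over 10 pairs of groups. Between vehicle and Dex 4 h the correlation was -0.03. No strong shared deviation was seen, but these values cannot show whether same-numbered samples were prepared together. With the replicate number as a block, 484 genes changed (269 up, 215 down), 100 against Dex 2 h and 552 against CpdA 4 h, and the block changed no call of a named gene. Depth limits the rarely read genes: 0.5 RPKM stood for 25.6 to 31.1 reads per kilobase.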

Other observations

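Some further families were looked up after the largest changes had been seen, and all their members are counted. Families chosen in this way lean towards calls. Over all genes 2.10% were called up and 1.68% down. Of 6 tested genes of the aryl hydrocarbon receptor, a sensor of aromatic compounds, 3 fell and none rose. The receptor gene AHR read 30.7 and 24.9 RPKM with vehicle and 11.04 and 13.4 RPKM at Dex 4 h (-1.18, adjusted p = 4.2e-05), and its target CYP1B1, abundant in these cells, 187 and 171 RPKM with vehicle and 51.02 and 69.1 RPKM at Dex 4 h (-1.59, adjusted p = 2.7e-05). CYP1A1 read 2.78 and 3.85 RPKM with vehicle and 0.389 and 0.635 RPKM at Dex 4 h (-2.49, adjusted p = 3.2e-05). TIPARP, another target, was higher (0.82, adjusted p = 0.0037) and NQO1 did not pass, so that the targets did not move together. Of 8 Notch genes tested 3 fell: the ligand gene JAG1 (34.2 and 32.9 to 11.1 and 13.9 RPKM, -1.42, adjusted p = 4.8e-06), the target gene HES1 (13.1 and 10.5 to 3.76 and 3.34 RPKM, -1.70, adjusted p = 2.5e-06) and the glycosyltransferase gene LFNG (-1.37, adjusted p = 0.0051), whose vehicle samples were 18.2 and 8.73 RPKM. HES1 also read lower with CpdA 4 h (-1.47 against the same vehicle samples).

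Of 14 tested genes of the Toll-like and interleukin 1 receptors and their signalling 4 rose and 1 fell, against 2.10% and 1.68% of all genes. TLR2, a receptor of bacterial lipoproteins, read 6.72 and 7.23 RPKM with vehicle and 32.4 and 34.05 RPKM at Dex 4 h (2.24, adjusted p = 2.0e-08), and IL1R1, the signalling interleukin 1 receptor, 2.90 and 2.94 RPKM with vehicle and 20.7 and 22.2 RPKM at Dex 4 h (2.83, adjusted p = 3.1e-08). IRAK3, an inhibitor of that pathway, rose from 0.206 and 0.228 to 0.640 and 0.860 RPKM (1.41), but it passed the filter only through Dex 4 h and had to be higher there. The kinase gene RIPK2 rose by 1.21. IL1RAP, the co-receptor of IL1R1, fell from 10.1 and 8.86 to 3.71 and 3.68 RPKM (-1.33, adjusted p = 1.4e-06), so the receptor and its partner moved in opposite directions. Among 8 tested genes of sphingosine 1-phosphate, the receptor genes S1PR1 (0.908 and 1.24 to 3.88 and 3.93 RPKM, 1.78, adjusted p = 5.0e-05) and S1PR3 (0.355 and 0.460 to 1.26 and 1.54 RPKM, 1.56, adjusted p = 1.3e-04) rose with SGPP2, and the kinase gene SPHK1 was lower within 2-fold (-0.90, adjusted p = 8.9e-04).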
